A study of Homo sapiens with 12 samples.

Results

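Integrins, laminins and nidogens are the receptors, ligands and linkers through which cells hold to the basement membrane. The 33 genes described here are the integrin alpha and beta subunits, laminin chains and nidogens chosen by symbol, and every symbol had its own row among the 56638 genes of the count table. They comprise 21 integrin subunits (13 alpha and 8 beta), 10 laminin chains and 2 nidogens. All 33 passed the filter on low counts and were among the 19130 genes tested. Messenger RNA was sequenced from NT2/D1, a human pluripotent embryonal carcinoma line, to ask which transcripts depend on PRMT6, an arginine methyltransferase that modifies histones. There were 4 groups of 3 libraries: PRMT6 knockout (a CRISPR/Cas9-mediated deletion) with ATRA (all-trans retinoic acid, 1 µM for 3 days), CRISPR/Cas9 control with ATRA, PRMT6 knockout untreated, and CRISPR/Cas9 control untreated. All groups are NT2/D1 cells grown in serum-containing medium, and the labels do not say what the CRISPR/Cas9 control received. The titles name a single knockout line, KO-2, so a feature of that line and the loss of PRMT6 cannot be told apart.

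An integrin is a pair of an alpha and a beta subunit that spans the membrane, binds matrix outside the cell and couples to actin inside it through adaptor proteins. A laminin is a trimer of an alpha, a beta and a gamma chain that polymerises into the sheet of the basement membrane, and nidogens bridge that sheet to the collagen IV network. Pluripotent cells in culture hold to laminin and vitronectin through integrins, and ATRA is the standard agent for driving NT2/D1 cells to differentiate.

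The libraries held 25.5 to 60.4 M counts, at which 3 counts correspond to 0.128 and 0.0432 CPM (counts per M counts of the library). PRMT6 itself was at 0, 0.0587 and 0 CPM in the ATRA-treated knockout and at 29.9, 15.9 and 26.8 CPM in the ATRA-treated control. Untreated, it was at 0.0351, 0 and 0.0428 CPM in the knockout and at 22.4, 1.94 and 8.93 CPM in the control. Knockout libraries 1 and 3 with ATRA were nearly identical, with a chi-square per gene of 1.91, and untreated knockout libraries 1 and 2 had 9.01, where other pairs of a group had 78.1 to 416 and counting error alone would give about 1. Knockout ATRA library 2 and untreated knockout library 3 stood apart from those pairs. The summed level of 10 fibroblast and stroma markers was 12400, 2260 and 12300 CPM in the ATRA-treated knockout, against 270 to 1520 CPM in the ATRA-treated control. Untreated, the same sum was 13300, 13900 and 2250 CPM in the knockout, against 448 to 543 CPM in the control. Of 6 tested endoderm markers, 4 rose in the untreated knockout, where 13.0% of all genes tested were called higher, and the summed level of the list of 7 was 80.1 to 94.9 CPM there, against 15.5 to 19.5 CPM in the untreated control. With ATRA 3 of the 10 stroma markers and 1 of the 6 endoderm markers rose, where 3.27% of all genes tested were called higher. Endothelial markers summed to 21.1 to 31.1 CPM in knockout libraries and 39 to 110 CPM in control libraries with PECAM1 at 0 throughout. Blood cell markers summed to 0.88 to 6.37 CPM. The 10 markers of pluripotent embryonal carcinoma summed to 1660 to 3010 CPM in the ATRA-treated knockout and 2250 to 3790 CPM in the ATRA-treated control. Untreated, they summed to 3740 to 6330 CPM in the knockout and 3750 to 5770 CPM in the control. Whether replicate libraries stem from independent cultures is not stated, and p-values therefore reflect only how these libraries vary, which may be technical. In bulk RNA, fewer cells of a type and less RNA per cell cannot be told apart.

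Scaled by gene length, the leading gene of each class was the same in all 4 groups, except between the laminin chains LAMB1 and LAMB2. Among alpha subunits ITGA5, which pairs with ITGB1 to form the classical fibronectin receptor, ranked highest by mean in every group. Its level was 29.7 ± 8.70 CPM per kilobase in the ATRA-treated knockout, 17.9 ± 6.40 in the ATRA-treated control, 34.9 ± 2.47 in the untreated knockout and 16.0 ± 3.62 in the untreated control (SD, n = 3 each). In the untreated control ITGA6, a laminin-binding subunit, came next at 14.1 CPM per kilobase, and its libraries (13.4 to 15.3) lay within the range of ITGA5 (11.8 to 18.4). In the ATRA-treated control the libraries of ITGA6 (3.15 to 17.8 CPM per kilobase) and ITGA5 (13.5 to 25.2) overlapped as well. In the untreated knockout ITGA6 ranked lower, at 3.83 CPM per kilobase, below ITGA5 in every library, and ITGA11 stood at 6.82. Of the beta subunits, ITGB5 and ITGB1 led in all groups. ITGB5, which pairs with ITGAV in a vitronectin receptor, made up 74.5% of the summed beta level per length in the untreated knockout and 49.7% in the untreated control. ITGB1, the partner of most alpha subunits, made up 24.0% in the untreated knockout and 49.0% in the untreated control. Per length, the libraries of ITGB5 lay above those of ITGB1 in both knockout groups and overlapped with them in both control groups.

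The commonest laminin chains per length were LAMA5 and LAMA1, LAMB1 and LAMB2, and LAMC1, the gamma chain found in most laminins. LAMC1 carried 94.7% of the gamma chain level per length in the untreated knockout and 95.6% in the untreated control, and the rest was LAMC3. LAMA5 was the leading alpha chain at 17.1 CPM per kilobase in the ATRA-treated knockout, 23.9 in the ATRA-treated control, 13.1 in the untreated knockout and 15.4 in the untreated control. LAMA1 followed at 4.9 CPM per kilobase in the ATRA-treated knockout, 8.44 in the ATRA-treated control, 7.25 in the untreated knockout and 8.25 in the untreated control. LAMB1 and LAMB2 lay close together and their libraries overlapped in all 4 groups. The libraries of LAMA5 and LAMA1 overlapped in the untreated control (5.16 to 23.4 and 4.94 to 10.2 CPM per kilobase) and in no other group. NID1 was the more abundant nidogen in every group, and in the untreated knockout its 102 CPM per kilobase was the highest mean of all 33 genes in any group.

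**Figure D1:**
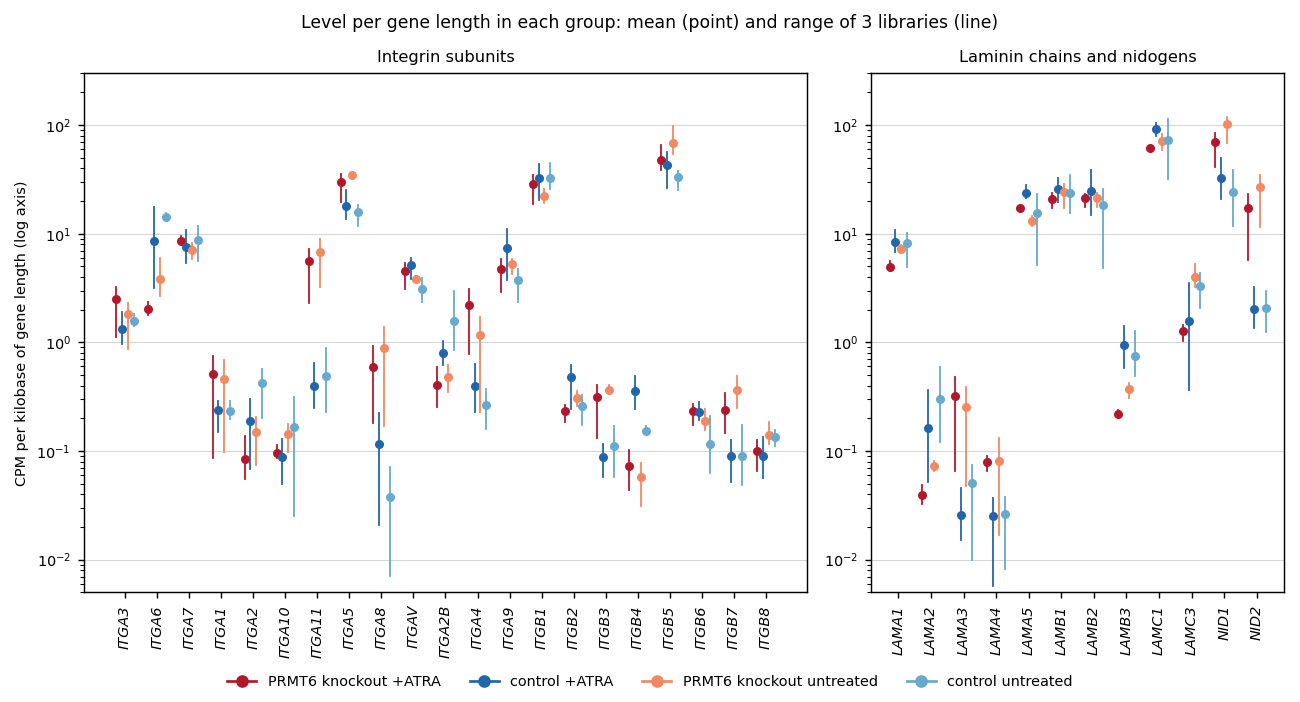
Level of each of the 33 genes per kilobase of gene length, in CPM per kilobase on a log axis, for PRMT6 knockout with ATRA, control with ATRA, untreated PRMT6 knockout and untreated control. Points are means of 3 libraries and lines run from the lowest to the highest library. LAMC1 and ITGB5 are among the 3 highest means in every group, and the ranges of ITGA11, NID2 and ITGB4 do not overlap between knockout and control, with or without ATRA.

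Without ATRA, both nidogens and a set of integrin subunits stood higher in knockout cells, while the abundant laminin chains did not pass the test. NID2 rose by 12.8-fold and NID1 by 4.16-fold. Among integrins ITGA8, ITGA11, ITGA4, ITGB7, ITGB3, ITGA5 and ITGB5 rose, and ITGA6, ITGA2B and ITGB4 fell. Of the 10 laminin chains LAMA2 was called, and it fell. A gene was called where its edgeR quasi-likelihood test had a Benjamini-Hochberg adjusted p under 0.05 over all genes tested. In the untreated comparison 13 of the 33 genes (39.4%) were called, and 34.9% of all genes tested were called. Split by direction, 9 of 33 were higher (27.3%, against 13.0% of all genes) and 4 were lower (12.1%, against 21.9% of all genes). The median log2 fold change was 0.25 over the 33 genes and -0.11 over all genes tested. Libraries of knockout and control did not overlap for 14 of the 33 genes, and for 47.9% of all genes tested. The 14 were 8 genes with higher knockout libraries (20.9% of all genes) and 6 with lower ones (27.0% of all genes). Summing the near-identical knockout libraries 1 and 2 into 1 sample left 2 of the 13 calls, ITGA11 and NID2, each at an edgeR adjusted p of 0.0408, and 5.42% of all genes tested were then called. The lost genes had log2 fold changes close to those of the separate libraries, for example 1.94 for NID1, 4.28 for ITGA8, 1.10 for ITGA5 and -1.69 for ITGA6, with wider errors. Removing each library's trend with GC content, which ran in opposite directions in most knockout and control libraries, kept 8 of the 13 calls where 18.0% of all genes were called, lost ITGA6, ITGA5, ITGB5, ITGB7 and LAMA2, and added ITGAV, ITGB6, ITGB8 and LAMB3.

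In untreated cells both nidogens differed between genotypes without overlap of libraries. NID2 was at 215, 206 and 71.4 CPM in the untreated knockout, against 7.71, 12.4 and 18.4 CPM in the untreated control. The lowest knockout library lay well above the highest control library, and the fitted log2 fold change was 3.67 ± 0.62 (SE, edgeR adjusted p = 0.00316). NID1 was at 693, 694 and 400 CPM in the untreated knockout, against 228, 69.7 and 132 CPM in the untreated control. These libraries did not overlap either, and the log2 fold change was 2.06 ± 0.46 (edgeR adjusted p = 0.0076). Untreated knockout library 3 was the lowest of its group for both nidogens. Both were called in each of the 12 fits that left out a single library, with log2 fold changes of 3.42 to 4.04 for NID2 and 1.72 to 2.57 for NID1.

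Upstream sequence is shown for both nidogens and for ITGA11, the 3 members with the largest called increases among those above 5 CPM in every untreated knockout library. Each run is the 250 bases before the annotated start in RefSeq on GRCh38.p14, a later build than that of the counts, 5′ to 3′ on the gene's strand. Capitals mark the GC box GGGCGG or its reverse complement. NID2 lies on the minus strand, with its window at chr14:52069060-52069309. The NID1 window is chr1:236065091-236065340, also on the minus strand. For ITGA11 the window is chr15:68432164-68432413 on the minus strand.
NID2: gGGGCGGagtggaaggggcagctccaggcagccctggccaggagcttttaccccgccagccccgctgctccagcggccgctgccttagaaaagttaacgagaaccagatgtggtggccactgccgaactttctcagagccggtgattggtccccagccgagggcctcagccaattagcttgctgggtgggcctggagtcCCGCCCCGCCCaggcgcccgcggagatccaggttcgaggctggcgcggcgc
NID1: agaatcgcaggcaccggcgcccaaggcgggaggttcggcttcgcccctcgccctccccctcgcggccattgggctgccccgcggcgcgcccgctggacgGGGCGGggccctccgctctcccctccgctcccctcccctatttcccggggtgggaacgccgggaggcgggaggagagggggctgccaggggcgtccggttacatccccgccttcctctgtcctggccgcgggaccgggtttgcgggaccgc
ITGA11: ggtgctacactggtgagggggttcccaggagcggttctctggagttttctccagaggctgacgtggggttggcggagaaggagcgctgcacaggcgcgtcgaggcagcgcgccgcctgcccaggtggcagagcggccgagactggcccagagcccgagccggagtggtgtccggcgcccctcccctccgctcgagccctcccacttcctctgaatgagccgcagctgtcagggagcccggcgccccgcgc
The NID2 window held 3 GC boxes, the NID1 window 1 and the ITGA11 window 0, and their GC contents were 68.0%, 76.4% and 71.2%. On both strands, a GC box was present in 14 of the 25 members that had a window in the sequence table used here (56.0%) and in 42.3% of 27305 windows of the same length. The AP-1 site TGANTCA was found in the LAMA3 window and in 6.6% of all windows. The TATA box TATAAA was found in the ITGA6 window and in 11.1% of all windows. The half-site AGGTCA of retinoic acid receptors was found in the LAMA2 window and in 12.1% of all windows. These searches were independent of each other, matches of different motifs may overlap, and a match describes letters and not a bound site. Whether transcription starts at the annotated position in NT2/D1 cells was not tested.

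Of the collagen-binding alpha subunits, ITGA11 differed most between genotypes. ITGA11, a receptor for fibrillar collagen known from mesenchymal cells, was at 50.4, 47.5 and 18.4 CPM in the untreated knockout, against 2.11, 1.3 and 5.04 CPM in the untreated control. Groups did not overlap, and the fitted fold was 13.7 (log2 3.78 ± 0.65, edgeR adjusted p = 0.00333). Its call held in all 12 fits without a single library, and leaving out control library 3, the highest control, moved the log2 fold change to 4.51. The other collagen receptors ITGA1, ITGA2 and ITGA10 were not called, at log2 fold changes of 0.96 ± 0.72, -1.52 ± 0.60 and -0.19 ± 0.66. ITGA2 was called lower in some other settings, among them DESeq2 (adjusted p = 0.0426) and the fit without untreated control library 1. The fibroblast and stroma markers, collagens among them, moved with ITGA11: 6 of 10 rose and 1 fell in the untreated knockout (13.0% and 21.9% of all genes tested), and their sum was lowest in the same knockout library. Their part in the difference of ITGA11 was not tested.

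Among the subunits that bind the RGD motif, ITGA5 and ITGA8 rose and ITGA2B fell. ITGA8, a receptor for nephronectin, was at 10.4, 8.31 and 1.28 CPM in the untreated knockout, against 0.533, 0.0528 and 0.259 CPM in the untreated control. Even knockout library 3 lay above every control library, but the control level rests on 41 counts over 3 libraries. The fitted log2 fold change was 4.60 ± 1.06 (edgeR adjusted p = 0.00833), and it was 5.36 without control library 1. ITGA5 was at 271, 279 and 243 CPM in the untreated knockout, against 139, 89.4 and 134 CPM in the untreated control. That is a fold of 2.18 between groups that did not overlap (log2 1.13 ± 0.29, edgeR adjusted p = 0.0133). ITGA2B, the alpha subunit of the platelet fibrinogen receptor, was at 1.93, 2.52 and 3.47 CPM in the untreated knockout, against 4.69, 4.7 and 16.6 CPM in the untreated control. Its log2 fold change was -1.72 ± 0.52 (edgeR adjusted p = 0.0241), and without control library 3, the highest, it was -0.84 and not called. ITGAV, the RGD-binding subunit that pairs with ITGB5, was at 31.3 ± 1.80 CPM in the untreated knockout and 25.6 ± 6.32 CPM in the untreated control and was not called.

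ITGA6, a laminin receptor subunit and a surface marker of pluripotent cells, was lower in knockout cells. It was at 18.8, 18 and 40.2 CPM in the untreated knockout, against 90, 92 and 103 CPM in the untreated control. Every knockout library lay below every control library, at a 3.69-fold lower fitted level (log2 -1.89 ± 0.54, edgeR adjusted p = 0.0194). The call was lost when untreated knockout library 1 or 2 or control library 3 was left out, at log2 fold changes of -2.36 to -1.68 over all 12 such fits. The other laminin-binding subunits were not called: ITGA3 averaged 17.8 ± 7.93 CPM in the untreated knockout and 15.4 ± 2.26 CPM in the untreated control. ITGA7, a receptor best known from muscle, averaged 45.3 ± 7.13 CPM in the untreated knockout and 56.1 ± 19.7 CPM in the untreated control. ITGA4, which with ITGB1 or ITGB7 binds fibronectin and VCAM1, was at 13.5, 12.3 and 1.8 CPM in the untreated knockout, against 1.25, 2.92 and 2.09 CPM in the untreated control. Knockout library 3 lay within the control range, so the groups overlapped although the gene was called (log2 fold change 2.13 ± 0.70, edgeR adjusted p = 0.0341). Leaving out any of untreated knockout libraries 1 and 2 and control libraries 1 and 3 ended that call. ITGA9 was not called, at 43.7 ± 7.19 CPM in the untreated knockout and 31.0 ± 10.3 CPM in the untreated control.

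Of the 8 beta subunits, ITGB5, ITGB3 and ITGB7 rose, ITGB4 fell and 4 were not called. ITGB5 was at 348, 359 and 627 CPM in the untreated knockout, against 233, 164 and 246 CPM in the untreated control. Unlike the nidogens it was highest in knockout library 3, and the groups did not overlap (log2 fold change 1.05 ± 0.34, edgeR adjusted p = 0.0302). ITGB5 lost its call without untreated knockout library 2 or 3 or control library 2 or 3. ITGB3, a partner of ITGAV and ITGA2B, was at 2, 1.67 and 1.71 CPM in the untreated knockout, against 0.827, 0.281 and 0.519 CPM in the untreated control. ITGB7, known from lymphocytes, was at 1.12, 1.57 and 2.22 CPM in the untreated knockout, against 0.773, 0.229 and 0.216 CPM in the untreated control. Both were low in level without overlap between groups, with log2 fold changes of 1.74 ± 0.51 for ITGB3 (edgeR adjusted p = 0.0209) and 2.04 ± 0.57 for ITGB7 (edgeR adjusted p = 0.0178). ITGB7 reached a log2 fold change of 2.87 without control library 1, and the call of ITGB7 was lost without untreated knockout library 2 or 3 or control library 2 or 3. ITGB3 lost its call without untreated knockout library 1 or 2 or control library 2 or 3.

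ITGB4, the partner of ITGA6 in hemidesmosomes, moved in the same direction as ITGA6. It was at 0.211, 0.523 and 0.428 CPM in the untreated knockout, against 0.96, 1.14 and 1.02 CPM in the untreated control. The groups did not overlap (log2 fold change -1.42 ± 0.45, edgeR adjusted p = 0.0293), and the knockout level rests on 32 counts over 3 libraries. That call ended in 5 of 12 fits without a single library, those without any untreated knockout library or without control library 2 or 3. ITGB1 was at 157, 133 and 118 CPM in the untreated knockout, against 159, 169 and 275 CPM in the untreated control. All knockout libraries of ITGB1 lay below all control libraries, by a narrow gap, and it was not called (log2 fold change -0.56 ± 0.32, edgeR adjusted p = 0.187). The remaining beta subunits ITGB2, ITGB6 and ITGB8 averaged 1.2 to 2.12 CPM in the untreated knockout and 0.732 to 2.04 CPM in the untreated control and were not called. Antisense genes of ITGB2 and ITGB5 are listed in the table, and because the strand setting is not given, reads may be shared with them.

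The laminin chains of high level showed no called genotype difference without ATRA in the main fit. LAMC1 was at 696, 630 and 491 CPM in the untreated knockout, against 957, 270 and 618 CPM in the untreated control. LAMA5 was at 173, 215 and 190 CPM in the untreated knockout, against 261, 75.9 and 344 CPM in the untreated control. Control libraries spread more widely than knockout libraries for both chains and enclosed them, with log2 fold changes of -0.02 ± 0.34 for LAMC1 and -0.24 ± 0.39 for LAMA5. LAMB1 was at 232, 215 and 139 CPM in the untreated knockout, against 166, 127 and 285 CPM in the untreated control. LAMB2 was at 155, 163 and 120 CPM in the untreated knockout, against 176, 33.5 and 170 CPM in the untreated control. LAMA1, the first laminin alpha chain of the embryo, was at 110, 110 and 125 CPM in the untreated knockout, against 161, 78.4 and 154 CPM in the untreated control. These groups overlapped, and untreated control library 2 was the lowest control library for all 5 of the chains just named. Without that library LAMA5 was called lower (log2 fold change -0.65, edgeR adjusted p = 0.03), where 27.8% of all genes tested were called. LAMA2, the alpha chain of muscle and nerve basement membrane, was at 0.702, 0.654 and 0.813 CPM in the untreated knockout, against 1.87, 1.21 and 5.94 CPM in the untreated control. The log2 fold change was -2.06 ± 0.74 (edgeR adjusted p = 0.0472), and without control library 3 it was -1.09 and not called. The call of LAMA2 ended in 13 of 22 other settings, among them the fits without any knockout library, treated or not, and the fit without untreated control library 3. LAMA4, a chain of vessel and stromal laminins, and LAMC3 were not called untreated, at log2 fold changes of 1.60 ± 0.75 and 0.27 ± 0.59, and LAMA3 and LAMB3 are described with the ATRA comparison.

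**Figure D2:**
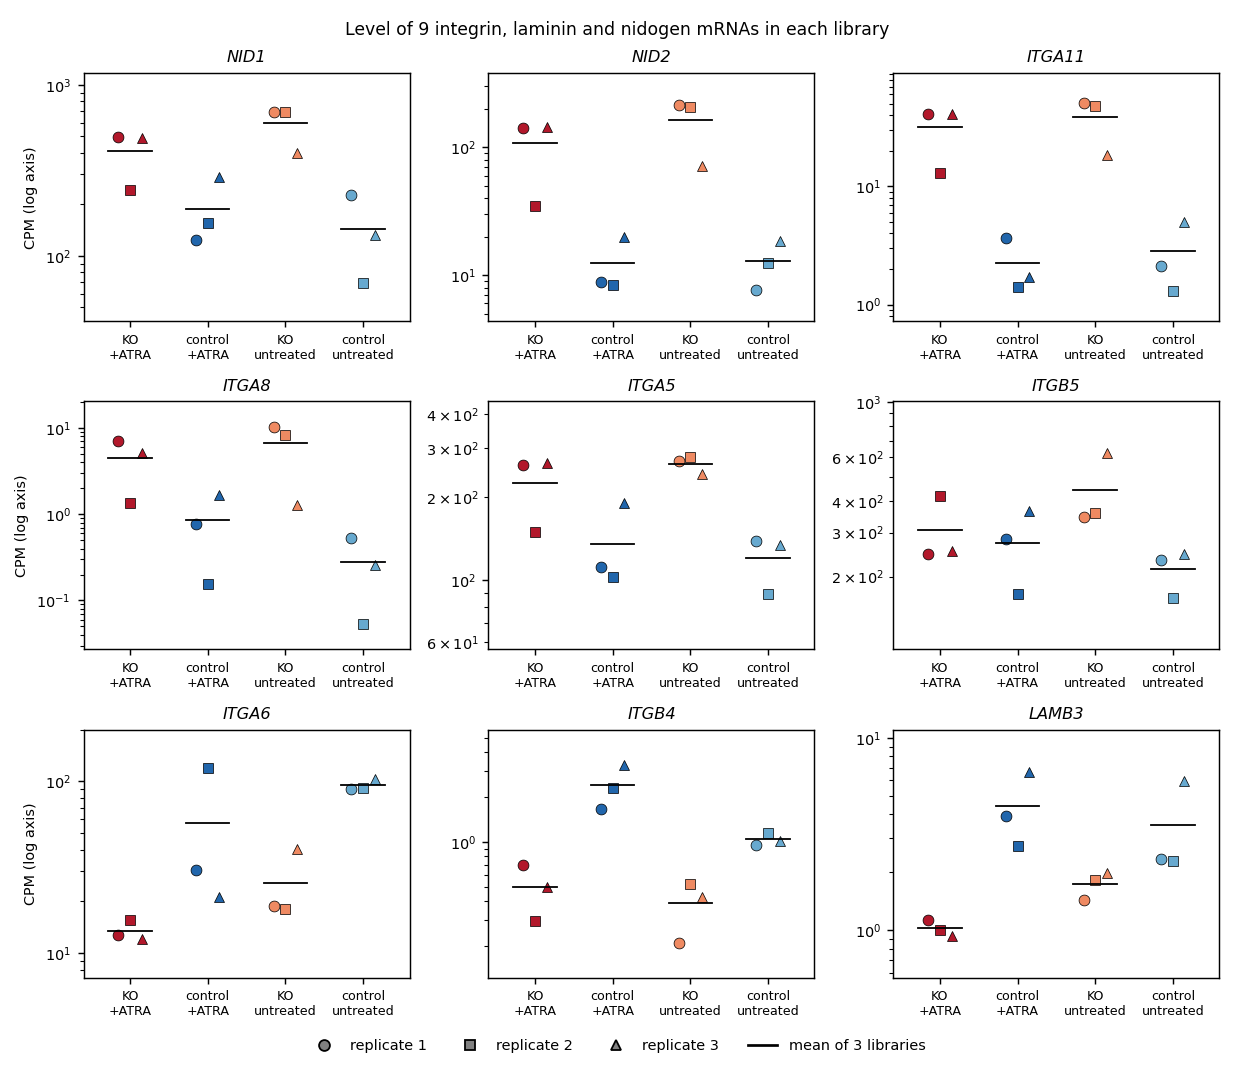
CPM of 9 of the genes in every library, on log axes that differ between panels, for knockout with ATRA, control with ATRA, untreated knockout and untreated control. Symbols mark the replicate number and bars the mean of 3 libraries. For NID2, untreated knockout libraries lie at 71.4 to 215 CPM and untreated control libraries at 7.71 to 18.4 CPM, and for ITGA6 the order of the genotypes is turned round.

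With ATRA, the knockout again had more NID2 and ITGA11 and less ITGA6 and ITGB4 than the control, and the laminin chains LAMA3 and LAMB3 joined the called genes in opposite directions. NID1 and the other integrins called without ATRA did not pass the test. Of the 33 genes 6 were called (18.2%), 3 higher and 3 lower (9.09% each), and 7.51% of all genes tested were called (3.27% higher and 4.24% lower). The median log2 fold change was 0.04 over the 33 genes and -0.06 over all genes tested. Libraries did not overlap for 15 of the 33 genes, 7 higher and 8 lower, and for 34.6% of all genes tested (16.7% higher and 17.9% lower). Scaling by DESeq2's size factors (RLE) in edgeR added ITGA4 and ITGB3 and so gave 5 higher and 3 lower. Under that scaling 7.45% of all genes tested were called. Summing the near-identical knockout libraries 1 and 3 into 1 sample left no call and 0.359% of all genes called, with log2 fold changes of 3.58 for ITGA11 (edgeR adjusted p = 0.0689) and 2.86 for NID2 (edgeR adjusted p = 0.0968). Removal of GC trends, under which 7.06% of all genes tested were called, kept 4 of the 6 calls. It lost ITGA6 and LAMA3, and added ITGA4, ITGB3 and LAMA1. The 2 genotype comparisons use different libraries and share 1 estimate of the spread.

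NID2 was at 143, 35 and 144 CPM in the ATRA-treated knockout, against 8.82, 8.39 and 19.9 CPM in the ATRA-treated control. Library 2 was the low knockout library and still lay above every control library (log2 fold change 3.12 ± 0.61, 8.67-fold, edgeR adjusted p = 0.0132). Without knockout ATRA library 1 or 3 the call was lost, at edgeR adjusted p-values of up to 0.0594. NID1 was at 494, 243 and 486 CPM in the ATRA-treated knockout, against 123, 155 and 289 CPM in the ATRA-treated control. Here knockout library 2 lay below control library 3, and the log2 fold change of 1.11 ± 0.45 did not pass (edgeR adjusted p = 0.131). ITGA11 was at 40.8, 13.1 and 41.1 CPM in the ATRA-treated knockout, against 3.69, 1.4 and 1.71 CPM in the ATRA-treated control. The groups did not overlap, the fold was 14 (log2 3.81 ± 0.65, edgeR adjusted p = 0.00883), and the call held in all 12 fits without a single library.

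ITGA6 was at 12.7, 15.7 and 12.1 CPM in the ATRA-treated knockout, against 30.6, 119 and 21.1 CPM in the ATRA-treated control. Control library 2 stood above the untreated control libraries (90 to 103 CPM), and its 2 companions were lower. The log2 fold change of -2.08 ± 0.54 (edgeR adjusted p = 0.0389) became -0.94 without that library (edgeR adjusted p = 0.149), and the call was also lost without any knockout ATRA library, untreated knockout library 1 or 2 or untreated control library 3. ITGB4 was at 0.695, 0.293 and 0.496 CPM in the ATRA-treated knockout, against 1.66, 2.31 and 3.29 CPM in the ATRA-treated control. All knockout libraries were low and the groups did not overlap (log2 fold change -2.28 ± 0.44, 4.87-fold lower, edgeR adjusted p = 0.0132). The call of ITGB4 was lost without knockout ATRA library 3 and held in the other 11 such fits.

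LAMA3 and LAMB3, alpha and beta chains of the laminin that anchors epithelia through the ITGA6 and ITGB4 pair, went opposite ways. LAMA3 was at 6.55, 0.88 and 5.62 CPM in the ATRA-treated knockout, against 0.615, 0.234 and 0.207 CPM in the ATRA-treated control. Knockout library 2 lay just above the control range (log2 fold change 3.63 ± 0.96, edgeR adjusted p = 0.041), and the call was lost without knockout ATRA library 1 or 3, any control ATRA library, untreated knockout library 1 or 2 or untreated control library 3. Without control library 1 of the ATRA group, LAMA3 had a log2 fold change of 4.28. LAMB3 was at 1.13, 0.997 and 0.936 CPM in the ATRA-treated knockout, against 3.93, 2.73 and 6.66 CPM in the ATRA-treated control. The knockout libraries were close together and below all control libraries (log2 fold change -2.12 ± 0.46, edgeR adjusted p = 0.0195). Leaving out any knockout ATRA library ended the call of LAMB3. Untreated, LAMA3 was at 5.3, 4.45 and 0.642 CPM in the knockout, against 0.133, 1 and 0.922 CPM in the control, and LAMB3 was at 1.44, 1.83 and 1.97 CPM in the knockout, against 2.35, 2.29 and 5.95 CPM in the control. LAMA3 overlapped there and LAMB3 did not, and neither was called (edgeR adjusted p = 0.0603 and 0.0879). In other settings untreated LAMA3 was called, among them DESeq2 (adjusted p = 0.0135) and the fit without untreated knockout library 3. Untreated LAMB3 was called without untreated control library 1 and after removal of GC trends.

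Other genes called without ATRA gave the following values with it. ITGA8 was at 7.01, 1.35 and 5.07 CPM in the ATRA-treated knockout, against 0.769, 0.156 and 1.68 CPM in the ATRA-treated control, and the groups overlapped (log2 fold change 2.36 ± 0.95). ITGA5 was at 261, 149 and 266 CPM in the ATRA-treated knockout, against 112, 103 and 191 CPM in the ATRA-treated control, again with overlap (log2 fold change 0.74 ± 0.29). ITGA4 was at 24.6, 6.22 and 21.9 CPM in the ATRA-treated knockout, against 5.04, 2.55 and 1.81 CPM in the ATRA-treated control. ITGA4 did not overlap between genotypes with ATRA, and its edgeR adjusted p was 0.052. ITGB3 was at 1.94, 0.645 and 2.01 CPM in the ATRA-treated knockout, against 0.43, 0.286 and 0.57 CPM in the ATRA-treated control, without overlap (edgeR adjusted p = 0.0503). ITGB5 was at 247, 422 and 254 CPM in the ATRA-treated knockout, against 284, 171 and 367 CPM in the ATRA-treated control. Its genotypes overlapped and the log2 fold change was 0.17 ± 0.33. ITGB7 was at 0.985, 1.53 and 0.661 CPM in the ATRA-treated knockout, against 0.4, 0.234 and 0.57 CPM in the ATRA-treated control, without overlap (edgeR adjusted p = 0.137). ITGA2B was at 1.42, 3.31 and 1.95 CPM in the ATRA-treated knockout, against 3.44, 5.66 and 4.22 CPM in the ATRA-treated control, also without overlap (edgeR adjusted p = 0.227). LAMA2 was at 0.492, 0.323 and 0.358 CPM in the ATRA-treated knockout, against 0.738, 3.64 and 0.518 CPM in the ATRA-treated control, where library 2 was the high one (edgeR adjusted p = 0.105).

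Several abundant laminin chains were lower in the ATRA-treated knockout without reaching a call in the main fit. LAMC1 was at 509, 538 and 513 CPM in the ATRA-treated knockout, against 750, 661 and 886 CPM in the ATRA-treated control. LAMA5 was at 246, 251 and 258 CPM in the ATRA-treated knockout, against 328, 315 and 411 CPM in the ATRA-treated control. LAMA1 was at 73, 88.4 and 72 CPM in the ATRA-treated knockout, against 107, 123 and 172 CPM in the ATRA-treated control. None of these overlapped between genotypes, and their log2 fold changes were -0.56 ± 0.34 for LAMC1, -0.48 ± 0.39 for LAMA5 and -0.78 ± 0.27 for LAMA1 (edgeR adjusted p = 0.31, 0.438 and 0.0891). Without untreated control library 2 LAMA1 was called lower (log2 fold change -0.79, edgeR adjusted p = 0.0291), where 10.9% of all genes tested were called. Removal of GC trends also gave a call for LAMA1 (-0.93, edgeR adjusted p = 0.0338), where 7.06% were called. LAMB1 was at 192, 141 and 182 CPM in the ATRA-treated knockout, against 266, 199 and 160 CPM in the ATRA-treated control. LAMB2 was at 156, 120 and 160 CPM in the ATRA-treated knockout, against 141, 103 and 263 CPM in the ATRA-treated control. Both beta chains overlapped between genotypes. ITGB1 also overlapped, at 213, 115 and 200 CPM in the ATRA-treated knockout, against 205, 270 and 124 CPM in the ATRA-treated control. The remaining 12 genes had log2 fold changes of -1.17 (ITGA2) to 1.66 (LAMA4) with ATRA, and none of them was called.

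**Figure D3:**
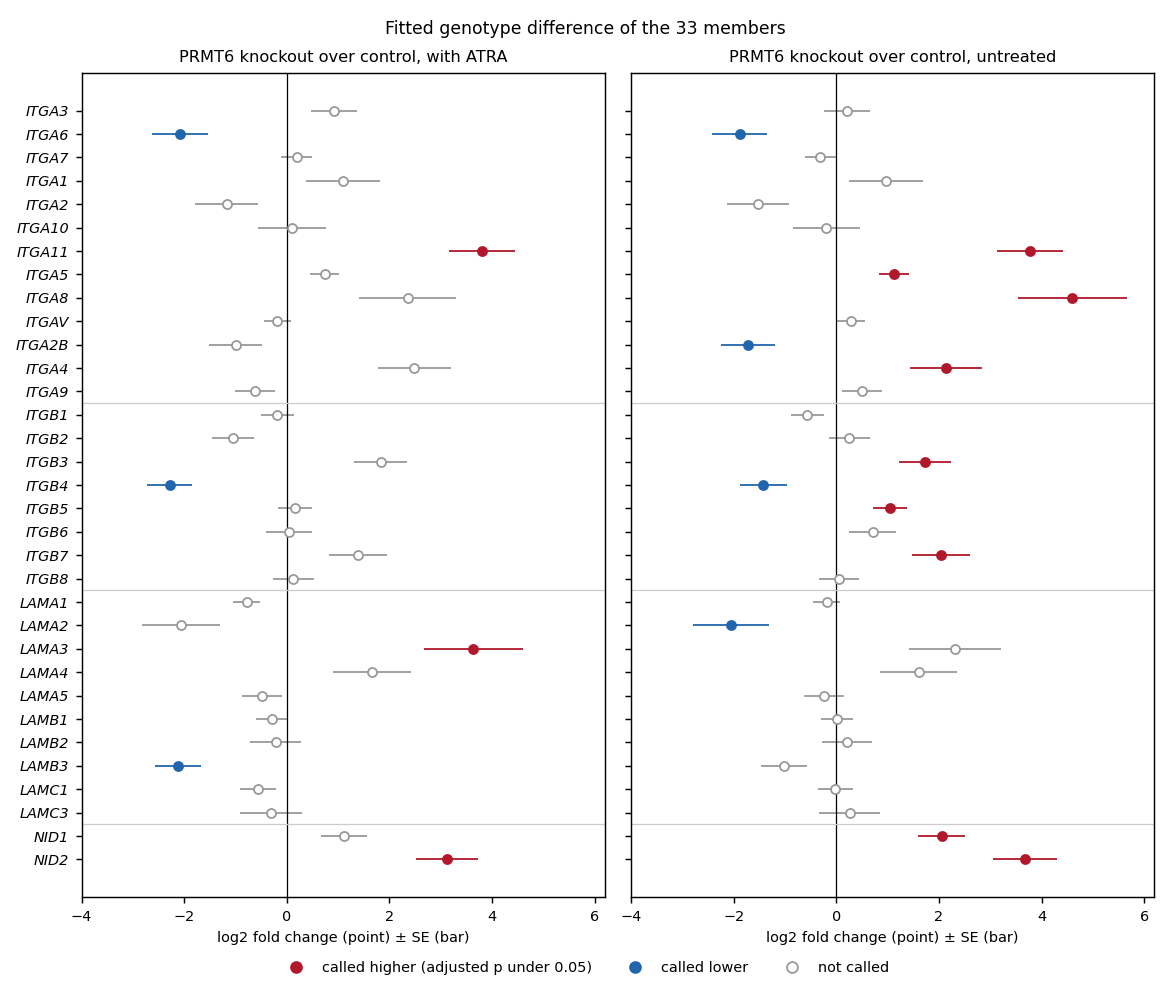
Fitted log2 fold change of PRMT6 knockout over control for the 33 genes, with ATRA on the left and untreated on the right. Points are fitted values, bars are ± 1 SE, red points were called higher, blue points called lower and open points not called at an adjusted p of 0.05. ITGA11 and NID2 lie at 3.81 and 3.12 with ATRA and at 3.78 and 3.67 untreated.

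The knockout libraries differed among themselves in these genes. In 17 of the 33 genes (51.5%), knockout ATRA library 2 and untreated knockout library 3 were each the lowest of their group, and the same held for 27% of all genes tested. These 17 included NID1, NID2, ITGA11, ITGA8, ITGA5, ITGA4 and LAMA3, which are the genes called higher in either genotype comparison other than ITGB3, ITGB5 and ITGB7. In 6 genes (18.2%, against 30% of all genes tested) both libraries were the highest of their group, namely ITGA6, ITGA2, ITGA2B, ITGB5, ITGB7 and LAMA1. Fibroblast and stroma markers were lower in those libraries as well, at 2260 CPM in knockout ATRA library 2 and 2250 CPM in untreated knockout library 3, and both sums were above every control library. Without both libraries, 11 of the 33 genes and 22.7% of all genes tested were called untreated, with ITGA1 and LAMA3 added and ITGB4, ITGB5, ITGB7 and LAMA2 lost. With ATRA 8 of the 33 and 4.47% of all genes tested were called without them, with ITGA3, ITGA1, ITGA4 and ITGB3 added and ITGA6 and LAMB3 lost. Of the 8, 7 were higher and 1 was lower.

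ATRA itself gave no called change among the 33 genes in either genotype. In knockout cells edgeR called 0 of 33, and 0.0314% of all genes tested (0.0261% higher and 0.00523% lower). Its unadjusted p was under 0.05 for 1 of the 33 (LAMC3) and for 2233 of the 19130 genes tested. DESeq2 called 0 of the 33 and 2.9% of all genes tested. In control cells edgeR called 0 of 33, and 0.115% of all genes tested (0.0993% higher and 0.0157% lower). Its unadjusted p was under 0.05 for 4 of the 33 (ITGAV, ITGA9, ITGB2 and ITGB4) and for 3961 of the 19130 genes tested. DESeq2 called 1 of the 33 (ITGB4, higher) and 8.55% of all genes tested. The median log2 fold change with ATRA was -0.23 over the 33 genes in the knockout (0.02 over all genes tested) and 0.02 in the control (-0.04 over all genes tested). Libraries with and without ATRA did not overlap for 6 of 33 genes in the knockout (31.9% of all genes tested, 17.2% higher and 14.7% lower), LAMA5 higher and ITGA6, LAMA1, LAMA2, LAMB3 and LAMC3 lower. In the control 1 of 33 did not overlap (14.8% of all genes tested, 7.40% higher and 7.43% lower), ITGB4 with higher values.

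LAMC3, a gamma chain known from peripheral nerve and retina, was at 11, 7.77 and 10.4 CPM in the ATRA-treated knockout, against 24.8, 26.8 and 39.8 CPM in the untreated knockout. The groups did not overlap, and the log2 fold change of -1.65 ± 0.61 was not called (edgeR adjusted p = 0.303). In a fit of the compared groups only, LAMC3 was called at -1.66 (edgeR adjusted p = 0.0143), as was LAMA1 at -0.59 (edgeR adjusted p = 0.0339), and that fit called 7.6% of all genes it tested. In the control with ATRA LAMC3 was at 2.77, 26.5 and 6.84 CPM, against 27.3, 15.9 and 32.8 CPM in the untreated control. ATRA control library 2 lay within the untreated range for LAMC3 and LAMA2 and above it for ITGA6. Without that library 5 of the 33 genes were called in the control, where 12.3% of all genes tested were called, at log2 fold changes of -2.39 for LAMC3, -1.87 for ITGA6, -2.26 for LAMA2, 1.28 for ITGA9 and 1.20 for ITGB2. The markers of pluripotent embryonal carcinoma summed to 2250, 3790 and 2650 CPM in the ATRA-treated control, highest in library 2, against 3750 to 5770 CPM in the untreated control, and their part in these values was not tested.

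Whether the genotype difference itself changed with ATRA was tested by the interaction. By edgeR 0 of the 33 genes and 0% of all genes tested were called. Its unadjusted p was under 0.05 for 1 of the 33 (ITGB2) and for 1868 of the 19130 genes tested. DESeq2 called 0 of the 33 and 0.068% of all genes tested. The interaction log2 values were -0.95 ± 0.63 for NID1, -0.56 ± 0.79 for NID2, 0.03 ± 0.82 for ITGA11, -0.88 ± 0.47 for ITGB5, -1.10 ± 0.62 for LAMB3 and -2.24 ± 1.33 for ITGA8. A gene called in 1 of the 2 genotype comparisons is therefore not shown to differ between them.

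**Figure D4:**
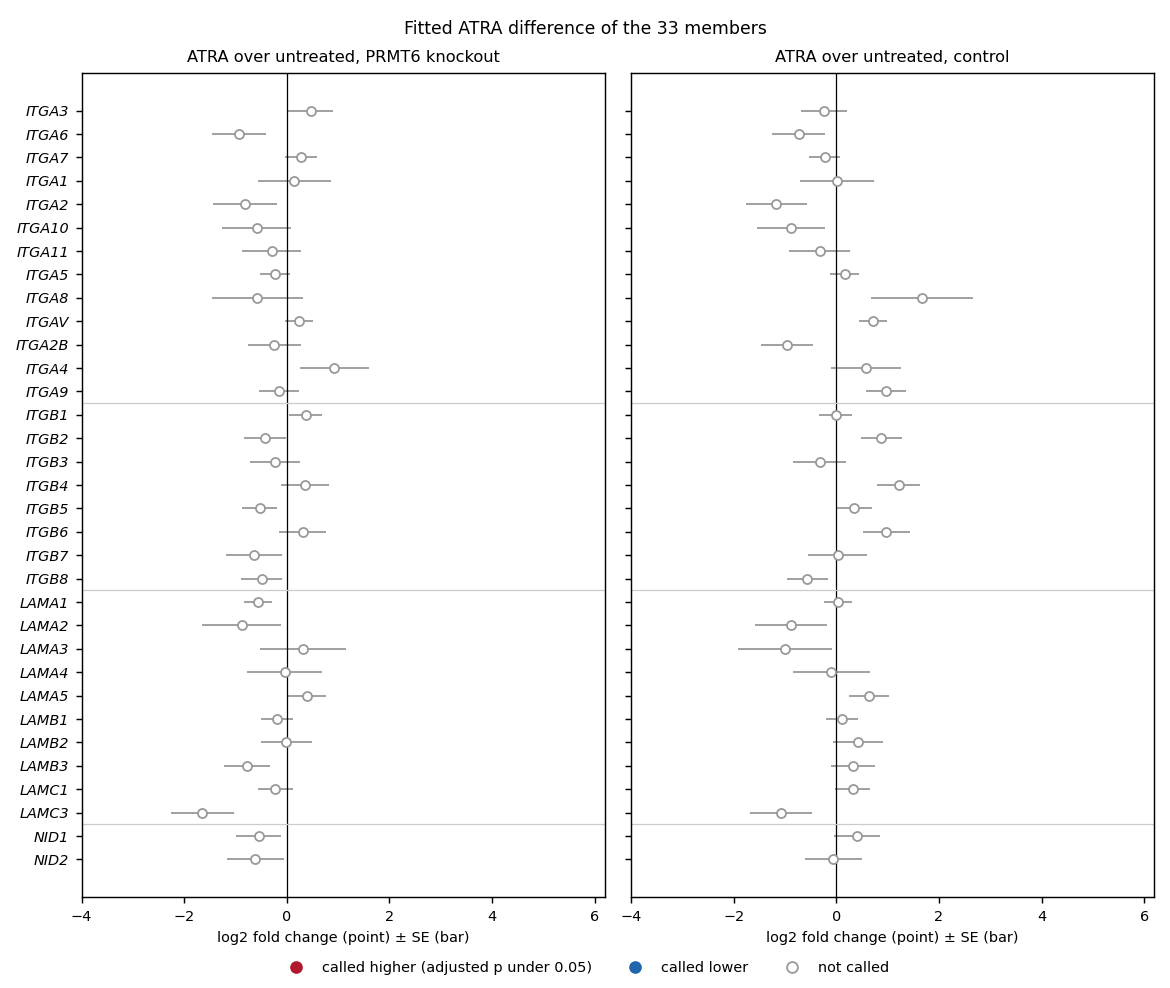
Fitted log2 fold change of ATRA over untreated for the 33 genes, in PRMT6 knockout cells on the left and in control cells on the right. Points are fitted values and bars are ± 1 SE. All points are open because no gene was called, with LAMC3 at -1.65 in the knockout and -1.07 in the control.

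Inside the cell, integrins couple to adaptors and kinases, and of 36 such genes 15 rose and 4 fell in the untreated knockout (median log2 fold change 0.50). TGFB1I1, a paxillin relative at focal adhesions, rose by 6.11-fold, LIMS2 by 5.31-fold, the adhesion protein zyxin (ZYX) by 2.45-fold and the actin crosslinker ACTN1 by 2.2-fold. Lower were ITGB1BP1, which binds the ITGB1 tail, focal adhesion kinase (PTK2), LIMS1 and CRK, with log2 fold changes of -0.83, -1.02, -0.90 and -0.83. LIMS1 and LIMS2, paralogous partners of integrin-linked kinase, thus moved in opposite directions. With ATRA 0 of the 36 were called higher and 3 lower, ITGB1BP1, CRK and PARVG, at a median log2 fold change of 0.13.

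Of 31 other integrin ligands and basement membrane proteins, 14 rose and 0 fell in the untreated knockout, with a median log2 fold change of 1.24. Their summed level was 15800, 16500 and 9860 CPM in the untreated knockout, against 3220 to 6170 CPM in the untreated control. With ATRA it was 14600, 7660 and 14600 CPM in the knockout, against 4080 to 7790 CPM in the control. The low knockout libraries, untreated 3 and ATRA 2, were also those low in fibroblast and stroma markers, whose part in these values was not tested. The collagen IV chains COL4A1 and COL4A2, which nidogens tie to laminin, rose by 3.81-fold and 3.92-fold. Vitronectin (VTN), a ligand of the ITGAV and ITGB5 pair, rose by 22.5-fold and the collagen-binding protein SPARC by 3.97-fold. With ATRA 6 of the 31 were called higher and 1 lower (median log2 fold change 0.51). NTN4 rose by 9.91-fold, MFGE8, an RGD ligand, by 7.07-fold, SMOC2 by 5.47-fold and COL4A2 by 2.94-fold, and SMOC1 fell, at 8.79-fold lower. Among 17 non-integrin laminin receptors and integrin partners, 6 rose and 1 fell in the untreated knockout, with a median log2 fold change of 0.24. SLC3A2, which binds integrin beta subunits, rose by 1.94-fold, the syndecan SDC4 by 2.73-fold, the tetraspanin CD63 by 2.02-fold and MCAM by 2.52-fold, and CD47, a partner of ITGB3, fell, at 1.68-fold lower. With ATRA SLC3A2 rose by 1.76-fold and the hyaluronan receptor CD44 fell, at 5.54-fold lower, and the other 15 were not called. All calls in these 3 lists are from the same edgeR fit, and the shares of all genes called in each direction given above apply to them. The edgeR adjusted p of the genes named was 0.00314 (COL4A1) to 0.0452 (CD47) untreated and 0.00635 (NTN4) to 0.037 (PARVG) with ATRA. These calls were not followed in the other settings. Summing near-identical libraries left 5.42% of all genes called untreated and 0.359% with ATRA.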

How the data were processed

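Per the labels' protocols, a stranded Illumina TruSeq mRNA kit was used. The authors deposited raw counts, whole numbers for each gene and library. The tools bcl2fastq, TopHat2, Subread, featureCounts and DESeq2 were used on hg19 and GRCh37, per the submitters' processing notes; for versions and the strand setting, nothing is given in the sources used here. All 12 sample columns were matched by title, with 0 columns unused.

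From these counts, genes were kept with filterByExpr (minimum count 10), libraries scaled by TMM and a quasi-likelihood model of the 4 group means fitted over all 12 libraries in edgeR 4.0.16 (R 4.3.3), with 5 contrasts and Benjamini-Hochberg adjustment over 19130 genes. CPM values use TMM-scaled library sizes, and CPM per kilobase uses the gene length that the authors deposited. The biological coefficient of variation was 0.367. Standard errors are the log2 fold change divided by the square root of F. Floors at 3 counts cover counting error only.

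The members and all lists were chosen with earlier results of these data known. Members called in any contrast, and the most abundant of each role, have their library values given; from each of the other adhesion lists up to 4 called genes per direction with the smallest adjusted p were named. GC content came from GENCODE v44 on GRCh38, matched by symbol or RefSeq synonym for 85.4% of tested genes and all 33 members. The scripts were tested on simulated data. Alternatives were RLE scaling, DESeq2 1.42.0, limma-voom (limma 3.58.1), no filter, a stricter filter (over 1 CPM in 3 libraries), the compared groups only, a replicate block, removal of GC trends, near-identical libraries summed, and leaving out libraries.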

Additional observations from a re-analysis of the deposited data

How the results depend on the processing

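Main counts of called genes were 13 of 33 untreated and 6 with ATRA for knockout against control, 0 for ATRA in each genotype and 0 for the interaction. Of all genes tested, 34.9% and 7.51% were called in the 2 genotype comparisons. Summing near-identical knockout libraries gave 2 untreated and 0 with ATRA, where 5.42% and 0.359% of all genes tested were called. Leaving out single libraries gave 5 to 14 untreated (7 without untreated knockout library 1, 5 without library 2 and 5 without untreated control library 3), 1 to 9 with ATRA (2 without knockout ATRA library 1 and 1 without library 3) and 0 to 5 for ATRA in the control (5 without control ATRA library 2). Those fits called 15.5% to 42.8% of all genes untreated, 1.11% to 10.9% with ATRA and 0% to 12.4% for ATRA in the control. With ATRA, DESeq2 called 10 of the 33 and 15.5% of all genes tested. The fit with no filter called 11 of the 33 and 6.32% of the 36681 genes it tested. For ATRA in the knockout the compared groups alone gave 2, where 7.6% of all genes tested were called. For ATRA in the control DESeq2 gave 1, where 8.55% of all genes tested were called. The interaction stayed at 0 in every setting run; a fit of the compared groups only is not defined for it. Removal of GC trends gave 12 and 7 calls for the genotype comparisons, of which 8 and 4 were among the main calls. Of all genes tested, 18.0% and 7.06% were then called. In the knockout libraries, Spearman's rho across genes between GC content and the deviation from the mean over libraries was 0.118 to 0.477, and in the control libraries it was -0.377 to 0.0907. The replicate block gave 11 untreated (without ITGA4 and LAMA2), 4 with ATRA (without ITGA6 and LAMA3), and 0, 0 and 0 for the other contrasts. It called 30.2% of all genes tested untreated and 3.98% with ATRA. Between groups, the deviations of same-numbered libraries from their group means correlated at -0.485 to 0.393. Of 18 such pairs 3 were over 0.1, so the numbers were not taken as pairs. No called fold change reversed in any setting. The cause of the changes in count was not tested. Levels below about 1 CPM, such as those of ITGB4 and LAMA2 in the knockout libraries, rest on few counts.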
